A study of Homo sapiens with 12 samples.

Results

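The libraries described are the 6 of 12 in the series that carry the CDK12 hairpin by label, 3 labelled shCDK12+OHT and 3 labelled shCDK12, and the comparison asks which newly made RNAs differed after 4-hydroxytamoxifen (OHT) in that background. All members were taken by their labels as deposited, and the count table holds 23434 genes for them, of which 12389 were abundant enough to test. The cells were U2OS, a human osteosarcoma line, with the MycER transgene, a Myc protein joined to the ligand-binding region of the estrogen receptor, which is expressed constitutively and is moved to the nucleus by OHT. Cells of both groups received doxycycline at 1 µg/mL to switch on the hairpin, nocodazole at 100 ng/mL for 8 h and collection 12 h after release, and the OHT group also received 300 nM OHT for 40 h. Whether the hairpin lines were clones or pools is not given in the sources used here. The other 6 libraries, with a non-targeting hairpin (shNT) and the same treatments, enter only where the OHT responses of both backgrounds are set side by side.

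RNA was labelled in the cells with 0.5 mM 5-ethynyl-uridine (EU) for 2 h, and the labelled molecules were biotinylated, captured and sequenced (EU-seq). The signal thus follows RNA made in that window and not the stock of mature transcripts. Myc pairs with Max on DNA, prefers the E-box sequence CACGTG, and is known for driving genes of ribosome production, nucleotide synthesis and cell growth, whereas CDK12 is a cyclin K-dependent kinase that phosphorylates the tail of RNA polymerase II and is needed for full-length transcription of long DNA repair genes. In what follows "higher" and "lower" always mean in the libraries labelled shCDK12+OHT relative to those labelled shCDK12. Levels are TMM-scaled CPM (each count as its part of a library of 1000000), folds are on the log2 scale, and a gene was called at a Benjamini-Hochberg adjusted p-value under 0.05 in edgeR's quasi-likelihood test.

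Total counts were 4142570, 9400045 and 5349901 in the libraries labelled shCDK12 and 7173020, 10447836 and 5378438 in those labelled shCDK12+OHT. The first principal component held 72.4% of the variance and separated the groups. The correlation of log2 CPM ran from 0.977 to 0.986 among the libraries labelled shCDK12, from 0.989 to 0.994 among those labelled shCDK12+OHT and from 0.939 to 0.948 between the groups. The libraries labelled shCDK12+OHT correlated with untreated shNT at 0.916 to 0.933 and those labelled shCDK12 at 0.862 to 0.879. With shNT+OHT the ranges lay close together, 0.874 to 0.909 for shCDK12+OHT and 0.856 to 0.908 for shCDK12. The target of the hairpin did not settle the labels. In the fit of all 12 libraries CDK12 was at 289 ± 10.9 CPM (SD, n = 3) in the libraries labelled shCDK12, 214 ± 5.09 CPM in those labelled shCDK12+OHT, 304 ± 17.4 CPM in shNT and 397 ± 38.7 CPM in shNT+OHT. The libraries labelled shCDK12 thus differed from untreated shNT in CDK12 by less than the spread among the shNT libraries, and every direction below holds under the labels as deposited and would turn if the labels of both groups were exchanged. The table holds human genes only, and the mouse RNA mixed in before capture (10 µg to 40 µg of human RNA) was not used here, so all values are relative to the other genes of a library.

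Newly made RNA differed widely between the groups. Of the 12389 genes, 3185 were called higher and 2958 lower, which is 25.7% and 23.9% of the genes tested and 49.6% together. The changes were mostly moderate, with a median absolute log2 fold change of 0.575 among called genes and 387 genes at least 2-fold higher against 387 at least 2-fold lower. The median over all genes was 0.015 and 9 in 10 genes lay between -0.85 and 0.87. The 3 libraries of a group lay wholly on one side of the other group for 3654 genes that were higher and 3349 that were lower.

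**Figure D1:**
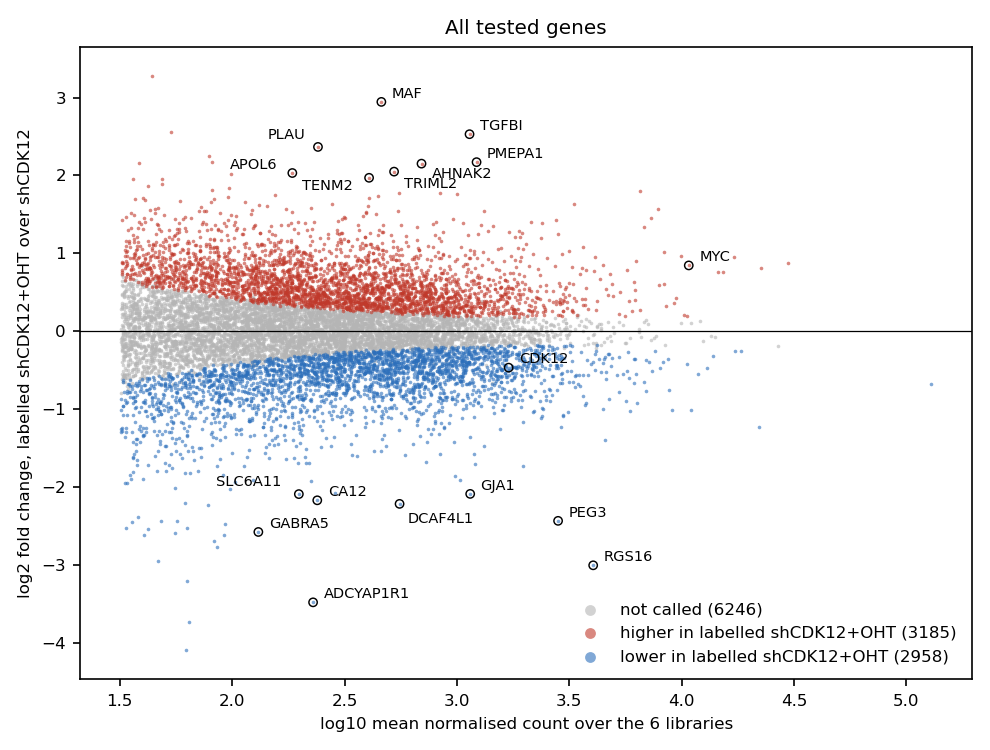
Log2 fold change of the libraries labelled shCDK12+OHT over those labelled shCDK12 (vertical axis) against log10 of the mean normalised count over the 6 libraries (horizontal axis), with 1 point for each of the 12389 genes tested. Red points were called higher (3185) and blue points lower (2958), and circles mark MYC, CDK12 and the genes with the largest changes above a mean normalised count of 100, from ADCYAP1R1 at -3.48 to MAF at 2.94.

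Among called genes without overlap and with a mean normalised count above 100, the largest rises were those of MAF, TGFBI and PLAU. MAF, a basic leucine zipper factor, was at 12.1, 21.0 and 12.4 CPM in the libraries labelled shCDK12 and at 131, 121 and 118 CPM in those labelled shCDK12+OHT, a 7.69-fold difference (log2 fold change 2.94, standard error 0.15, adjusted p = 9.23e-12). TGFBI, a secreted matrix protein named for its induction by TGF-beta, was at 47.6, 50.8 and 52.3 CPM against 270.3, 293 and 309 CPM, or 5.77-fold higher. PLAU, the urokinase plasminogen activator, was at 15.5, 11.1 and 9.32 CPM against 54.4, 65.0 and 61.3 CPM. The rule that chose them requires that the groups do not overlap. The next largest were PMEPA1 (log2 fold change 2.17), a negative regulator of TGF-beta signalling, AHNAK2 (2.15), a large scaffold protein, TRIML2 (2.05), APOL6 (2.03) and TENM2 (1.97), a teneurin adhesion molecule.

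Under the same limits the largest falls were those of ADCYAP1R1, RGS16, GABRA5 and PEG3. ADCYAP1R1, the receptor of the neuropeptide PACAP, was at 78.8, 52.9 and 61.2 CPM in the libraries labelled shCDK12 and at 4.13, 6.27 and 6.61 CPM in those labelled shCDK12+OHT (log2 fold change -3.48, standard error 0.18). RGS16, which switches off G protein signals, was at 1154, 1001 and 1134 CPM against 136, 142 and 129.9 CPM, or 8.05-fold lower. PEG3, an imprinted zinc finger gene, was at 763, 681 and 731 CPM against 134, 124 and 144 CPM. The others were GABRA5 (log2 fold change -2.58), a subunit of the GABA receptor, DCAF4L1 (-2.22), CA12 (-2.17), a carbonic anhydrase of the cell surface, SLC6A11 (-2.09), a GABA transporter, and GJA1 (-2.09), the gap junction protein connexin 43.

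Genes widely cited as Myc targets were lower as a group. Of 29 tested, 26 were called lower and 0 higher, against 23.9% and 25.7% of all genes, and the median log2 fold change was -0.53 beside 0.015 over all genes. CDK4, RUVBL1 and RUVBL2 were the members without a call. ODC1, the first enzyme of polyamine synthesis and a classical E-box target, was at 1102, 1092 and 1140 CPM against 550.3, 630.2 and 611 CPM (log2 fold change -0.90, standard error 0.07, adjusted p = 1.35e-09). NCL, the nucleolar protein nucleolin, was at 1002, 868 and 918 CPM against 479.8, 518 and 531 CPM. CCND2, which encodes cyclin D2, had a log2 fold change of -1.01, and CAD, the enzyme that opens pyrimidine synthesis, one of -0.48. The list was written with knowledge of Myc biology and of earlier results of these libraries, so its direction is a description. Gene lists here and below overlap, with 52 genes shared between lists, so they are not separate results.

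MYC itself moved the other way. It was at 1267, 1061 and 1153 CPM in the libraries labelled shCDK12 and 2121, 2095 and 2026 CPM in those labelled shCDK12+OHT, with no overlap between the groups (log2 fold change 0.84, standard error 0.08, adjusted p = 5.29e-09). Whether counts of MYC include reads from the MycER transgene is not given in the sources used here. Among the 11 tested genes of the network of Myc, Max, the repressive MXD proteins and MLX, 3 were higher and 4 lower. These were 27.3% and 36.4%, beside 25.7% and 23.9% of all genes. Without shCDK12+OHT replicate 1 the counts were 3 and 3. MXD4, a Max-binding repressor, was at 19.8, 13.6 and 16.2 CPM against 43.1, 43.4 and 41.3 CPM (log2 fold change 1.4), and MLX was also higher (0.73). MAX (-0.35), MXI1 (-0.42), MXD3 (-0.54) and MLXIP (-0.94), the partner of MLX, were lower.

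Transcription kinases, pause factors and elongation factors stood closer to the centre, with 3 of 32 higher, 7 lower and a median of -0.07. These were 9.38% and 21.9%, beside 25.7% and 23.9% of all genes. CDK12 was at 306, 284 and 306 CPM against 218, 208 and 221 CPM, so its nascent signal was 1.38-fold lower with the OHT label (log2 fold change -0.47, standard error 0.08, adjusted p = 1.92e-05). Its paralogue CDK13 had a log2 fold change of -0.06 with overlapping libraries (standard error 0.08, adjusted p = 0.534). HEXIM1, which holds the kinase P-TEFb inactive, was lower (-0.51), and AFF1, a scaffold of the super elongation complex, was higher (0.47).

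**Figure D2:**
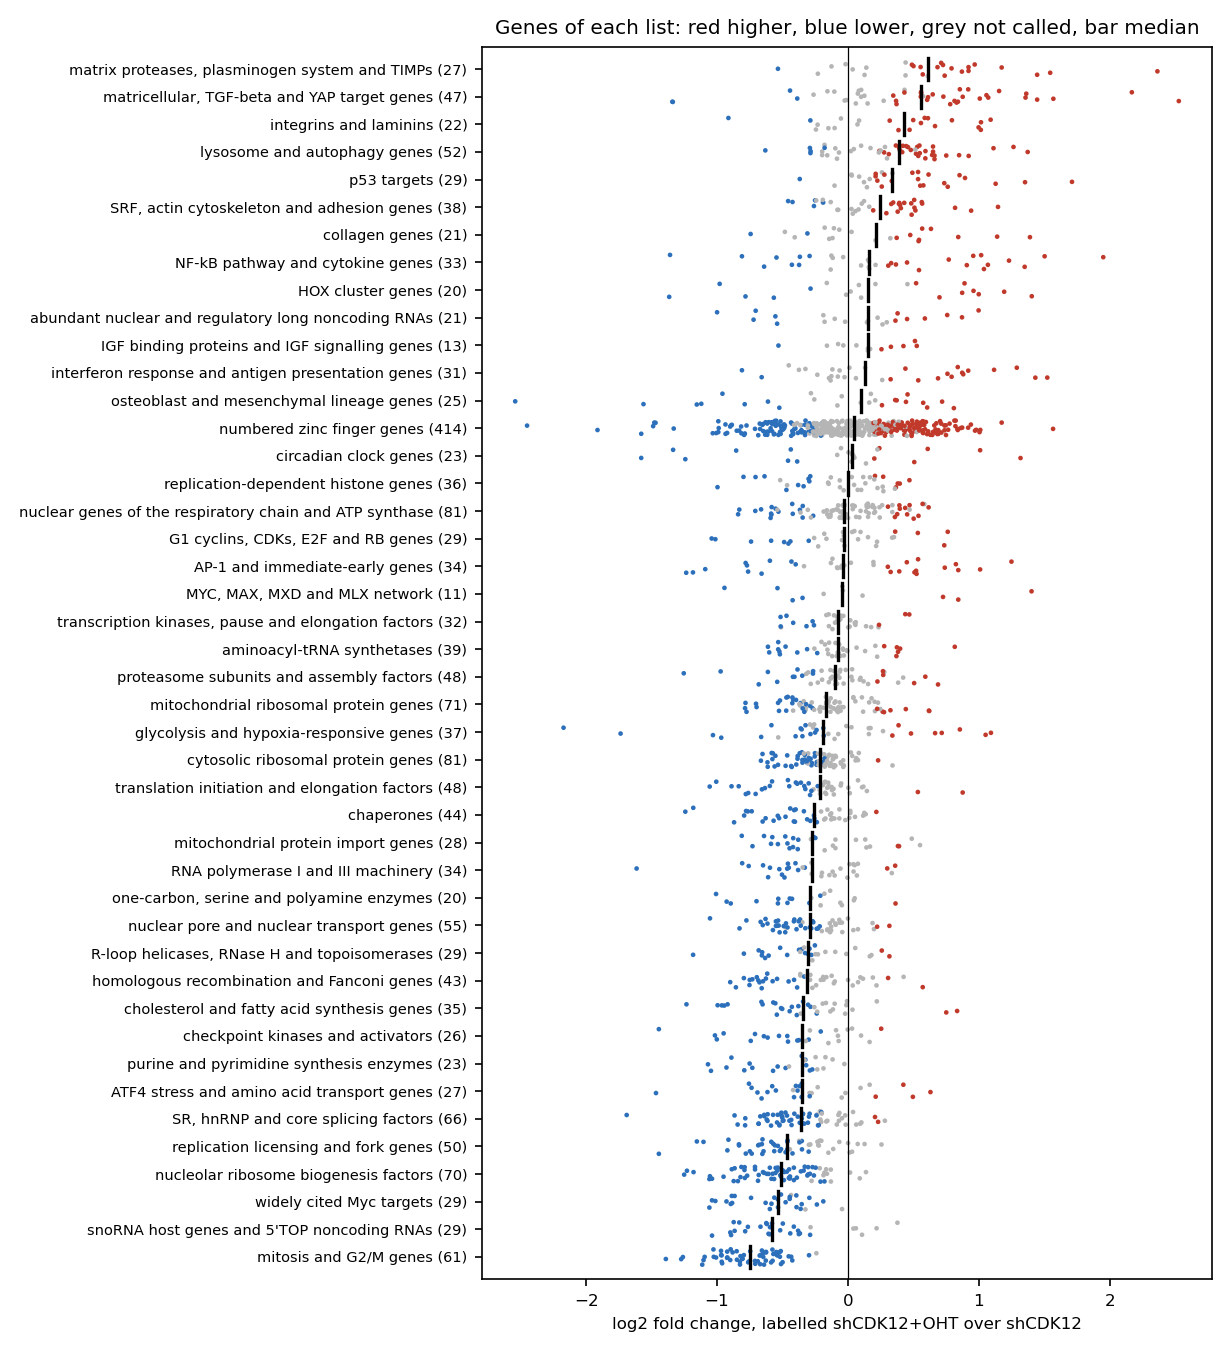
Log2 fold change (horizontal axis) of each tested gene in 44 gene lists (rows, with the number of genes tested), ordered by their median, drawn as a black bar. Red points were called higher, blue points lower and grey points neither. Matrix proteases are at the top with a median of 0.61 and mitosis genes at the bottom with -0.75.

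Nucleolar factors of ribosome production were lower as a group, and polymerase I and III genes in part. Of 70 nucleolar factors that cut, modify and assemble ribosomal RNA, 59 were called lower and 0 higher, and the median log2 fold change was -0.51. NOLC1, a chaperone of small nucleolar ribonucleoproteins, was at 691, 561 and 598 CPM against 250.4, 261 and 276 CPM (log2 fold change -1.23, standard error 0.08, adjusted p = 4.88e-11). NOP56, a core protein of box C/D particles, was at 698, 576 and 646 CPM against 305, 299.6 and 330.3 CPM. FBL, the methyltransferase of the same particles, fell by 1.06 on the log2 scale, RRP1B by 1.25, the helicase DDX10 by 1.18 and BOP1, which acts in maturation of the large subunit, by 0.89. Among 34 subunits and factors of RNA polymerases I and III 15 were lower, 2 higher and 17 without a call (median -0.28). POLR3G, a subunit of the polymerase III form found in proliferating cells, was at 44, 61.3 and 39.4 CPM against 16.1, 16.4 and 15.1 CPM. POLR1B, the second largest subunit of polymerase I, had a log2 fold change of -0.61 and the initiation factor RRN3 one of -0.52.

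Genes for the ribosome's own proteins had smaller changes, and most were called lower or had no call. Of 81 cytosolic ribosomal protein genes 37 were lower and 1 higher, 43 had no call, and the median was -0.21. RPL3 was at 511, 478 and 507 CPM against 391, 396 and 385 CPM (log2 fold change -0.35), and RPL27A had the smallest p of the list (-0.66). RPS6 was at -0.21 without a call (adjusted p = 0.0628). RPSA, the member called higher (0.23), had libraries that overlapped between the groups, lost its call in 5 of the alternative fits and has many processed copies in the genome with which reads could be shared. Mitochondrial ribosomal protein genes were mixed, 21 lower and 7 higher of 71 (median -0.17). These were 29.6% and 9.86%, beside 23.9% and 25.7% of all genes. MRPS2 was at -0.47, MRPL4 at -0.78 and MRPL24 at 0.62. The lead gene MRPL12 had at most 43 counts in a library and was below the filter.

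The promoters of some of these genes hold the E-box. The 250 bases before the transcription start of PPAT and SRM, which were lower, and of TGFBI and PLAU, which were higher, are shown from the RefSeq annotation of GRCh38.p14, 5′ to 3′ on the strand of the gene, with CACGTG in capitals. PPAT opens purine synthesis and SRM makes spermidine. PPAT is at chr4:56435616-56435865 (minus strand), SRM at chr1:11060019-11060268 (minus strand), TGFBI at chr5:136028738-136028987 (plus strand) and PLAU at chr10:73910360-73910609 (plus strand).
PPAT: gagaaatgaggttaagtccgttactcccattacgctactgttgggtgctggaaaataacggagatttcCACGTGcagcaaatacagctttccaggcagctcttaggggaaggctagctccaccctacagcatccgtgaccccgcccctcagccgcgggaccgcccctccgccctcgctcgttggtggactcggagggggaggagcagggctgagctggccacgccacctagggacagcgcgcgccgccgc
SRM: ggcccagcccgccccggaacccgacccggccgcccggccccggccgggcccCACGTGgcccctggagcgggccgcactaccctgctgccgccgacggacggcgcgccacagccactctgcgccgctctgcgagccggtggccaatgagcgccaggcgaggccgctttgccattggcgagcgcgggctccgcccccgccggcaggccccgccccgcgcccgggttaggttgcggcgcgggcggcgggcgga
TGFBI: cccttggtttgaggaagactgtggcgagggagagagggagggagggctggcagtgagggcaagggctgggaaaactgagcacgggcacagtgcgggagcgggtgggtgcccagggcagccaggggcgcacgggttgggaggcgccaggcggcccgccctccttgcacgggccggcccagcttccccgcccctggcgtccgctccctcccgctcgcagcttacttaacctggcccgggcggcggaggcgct
PLAU: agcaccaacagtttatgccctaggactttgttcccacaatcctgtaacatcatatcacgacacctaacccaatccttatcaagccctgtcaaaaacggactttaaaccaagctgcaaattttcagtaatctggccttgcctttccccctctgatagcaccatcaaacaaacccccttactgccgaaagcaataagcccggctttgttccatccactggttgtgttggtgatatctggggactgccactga
The E-box begins 182 bases before the start of PPAT and 199 bases before that of SRM, and the windows of TGFBI and PLAU hold 0 copies. PPAT and SRM were chosen for display because they hold the sequence, and TGFBI and PLAU as leading genes called the other way. The contrast between these promoters is therefore an illustration and no result.

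Across the 9880 tested genes matched to the promoter table (250 bases before to 50 after the start), CACGTG, which reads the same on both strands, was in 10.3% of windows, beside 7.43% of all 27305 promoters of the table. It was in 43.3% of the 60 matched nucleolar factors and in 25% of the 20 purine and pyrimidine genes. The share was 11.4% among genes called lower, 8.75% among genes called higher and 10.6% among genes without a call. Within the nucleolar list, 22 of the 26 genes with the sequence were called lower and 28 of the 34 without it, with medians of -0.52 and -0.49. TGANTCA was counted with any base at N, which is wider than the AP-1 site, where N is C or G. It was in 6.16% of the promoters called higher and 3.64% of those called lower (4.6% of tested genes). CCAAT was in 33.8% and 41.2% (36.7%), and each was counted on both strands.

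Enzymes that supply nucleotides and polyamines were lower too. Of 23 purine and pyrimidine synthesis enzymes 15 were lower and 0 higher (median -0.35). PPAT was at 206, 262 and 211 CPM against 125, 117 and 116 CPM (log2 fold change -0.93, standard error 0.09). IMPDH1 and IMPDH2, which commit IMP to guanine nucleotides, were at -1.07 and -0.29, and UMPS, which completes UMP, at -0.27. Of 20 one-carbon, serine and polyamine enzymes 11 were lower and 1 was higher (median -0.29). AMD1, which makes the aminopropyl donor of polyamine synthesis, was at 280.3, 377 and 316 CPM against 169, 166 and 150.1 CPM. SHMT2, the mitochondrial serine hydroxymethyltransferase, was at -0.29. SRM was at 36.2, 25.7 and 28 CPM against 22.7, 21.4 and 20.9 CPM, and its log2 fold change of -0.44 (adjusted p = 0.0154) lost the call in 4 alternative fits.

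Lists of the protein-making and protein-folding machinery held more genes called lower than higher. Among 48 translation factors 22 were lower and 2 higher (median -0.21). The cap-binding protein EIF4E was at 133, 171 and 147 CPM against 102, 104 and 93.9 CPM (log2 fold change -0.60), and its inhibitor EIF4EBP1 had a log2 fold change of -1.06. EIF4G3, a scaffold of the cap-binding complex, was one of the exceptions (0.88). Aminoacyl-tRNA synthetases were mixed, with 10 lower and 6 higher of 39 (25.6% and 15.4%, median -0.08), with IARS1 at -0.52 and HARS2 at 0.82, and WARS1 was at -0.07 without a call. Of 44 chaperones 24 were lower and 1 higher (median -0.26). HSPA5, the chaperone BiP of the endoplasmic reticulum, was at 432, 402 and 441 CPM against 249, 253 and 247 CPM, and the mitochondrial chaperonin HSPD1 had a log2 fold change of -0.54. The stress-inducible HSPA1A was at -1.18, although it shares its sequence with a near-identical copy. HSP90AA1 was called higher at 0.22 with overlapping libraries, a call that 5 alternative fits did not keep. Of 48 proteasome genes 11 were lower (22.9%, about the share over all genes) and 6 higher (12.5%, median -0.10), with the assembly factor PSMG1 at -1.25 and PSMD1 at -0.20 without a call.

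Genes of the amino acid stress response were lower in larger part. Of 27 genes of the ATF4 programme and amino acid transport 15 were lower and 4 higher, with a median of -0.35. ATF4 was at 1372, 1377 and 1531 CPM against 1001, 1109 and 1139 CPM (log2 fold change -0.40), and its targets DDIT3 (-0.37) and TRIB3 (-0.29) were lower as well. CTH, which makes cysteine from cystathionine, fell furthest, from 39.4, 32.4 and 31.6 CPM to 12.4, 13.6 and 10.7 CPM. The amino acid transporter SLC38A2 was an exception (0.42).

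Lists of mitochondrial genes differed from one another in their share of calls. Genes for import of proteins into the organelle were lower (15 of 28, with 2 higher, median -0.27), including the pore protein TOMM40 at -0.73 and the small chaperone TIMM8A at -0.42. Nuclear genes of the respiratory chain and ATP synthase had 16 lower and 12 higher of 81 (19.8% and 14.8%, median -0.03). Both shares were below those over all genes, 23.9% and 25.7%. With length and GC trends removed the counts were 16 lower and 17 higher. CYCS, which encodes cytochrome c, was at -0.59 and the assembly factor NDUFAF4 at -0.55, whereas UQCRFS1, the Rieske protein of complex III, was at 0.47. The table holds 0 genes encoded by the mitochondrial genome.

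In glycolysis and the hypoxia response 16 of 37 genes were lower and 8 higher (43.2% and 21.6%, median -0.19). Over all genes the shares were 23.9% and 25.7%. HK2, the inducible hexokinase, was among the larger falls of the list, at 482, 453 and 449 CPM against 136, 139.9 and 139 CPM (log2 fold change -1.74, standard error 0.08). VEGFA was at -0.66 and the glucose transporter SLC2A1 at -0.29, while another glucose transporter, SLC2A3, was at 1.05 and NDRG1 at 0.72. LDHA was called lower at -0.19 with overlapping libraries and lost its call in 7 alternative fits. Cholesterol and fatty acid synthesis was more uniform, with 20 of 35 genes lower and 2 higher (median -0.34). DHCR7, which makes cholesterol from its last precursor, was at 186, 172 and 202 CPM against 78.7, 87.3 and 70.7 CPM. FASN (-0.94) and SCD (-1.0) were lower too.

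Lysosome and autophagy genes formed the main metabolic group that was higher. Of 52 tested 30 were called higher and 5 lower, against 25.7% and 23.9% of all genes, and the median log2 fold change was 0.39. CTSB, the protease cathepsin B, was at 66.7, 63.3 and 67.3 CPM against 156, 159 and 197 CPM (log2 fold change 1.37, standard error 0.10, adjusted p = 1.81e-10). GABARAPL1, which coats autophagosomes, was at 200.3, 193 and 184 CPM against 389.9, 418 and 441 CPM. The autophagy receptor SQSTM1 was at 0.65 and TFE3, a transcription factor of lysosomal genes, at 0.75. Its relative TFEB was at 0.28 without a call (adjusted p = 0.191), as was the membrane protein LAMP1 at -0.10. Chosen after their values were seen, the protease CTSD (0.92), the cholesterol carrier NPC2 (1.27) and LAMP2 (0.40) were higher as well, and GLA (-0.63) was the largest fall among the 5 lower members.

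Genes of mitosis were lower almost without exception. Of 61 tested genes of mitosis and the G2/M phase 60 were called lower and 0 higher, and the median log2 fold change was -0.75, and NCAPD2, a condensin subunit, was the only one without a call. KIF20A, a kinesin of the midzone, was at 109.9, 95.6 and 98.7 CPM against 38.0, 32.4 and 46.7 CPM (log2 fold change -1.39, standard error 0.12, adjusted p = 3.54e-09). CCNB1, the cyclin that drives entry into mitosis, was at 171, 162 and 178 CPM against 84.9, 89.6 and 103 CPM. PLK1 was at -1.27, BIRC5, which encodes survivin, at -1.10, CENPE, a kinetochore motor, at -1.03 and AURKA at -0.64.

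Replication genes showed the same direction with smaller steps. Of 50 licensing and fork genes 32 were lower and 0 higher (median -0.46). MCM2, a subunit of the replicative helicase, was at 201, 181 and 199 CPM against 122, 124 and 125 CPM (log2 fold change -0.64), and the licensing factor CDC6 was at -0.75. TIPIN, of the fork protection complex, was at -1.44 and GINS3 at -0.91. PCNA was called lower at -0.35 with overlapping libraries. Among 29 G1 cyclins, CDKs, E2F and RB genes 8 were lower (27.6%, beside 23.9% of all genes) and 4 higher (13.8%, beside 25.7%). CCNE1, which encodes cyclin E1, was lower (-0.49), as were the phosphatase CDC25A (-0.74) and CCNA2 (-1.04), and CCND1, which encodes cyclin D1, was higher (0.53), as was the CDK inhibitor CDKN2C (0.74). E2F1 was at -0.03 without a call. Replication-dependent histone genes were divided, with 10 lower and 6 higher of 36 (median -0.001), and 6 lower and 14 higher with length and GC trends removed (median 0.16). They had H2BC12 at -1.0, H1-2 at 0.37 and H4C3 at -0.03 without a call. Cells were collected at one time after release, and the share of cells in each phase cannot be told apart from a change in synthesis per cell.

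Genome maintenance genes were lower in part. Of 43 homologous recombination and Fanconi genes 19 were lower and 2 higher (median -0.31). BRCA2 was at 102, 114 and 101 CPM against 68.6, 55.9 and 65.6 CPM (log2 fold change -0.75), and PALB2, which links it to BRCA1, was at -0.86. BRCA1 (-0.24, adjusted p = 0.134) had no call. FANCF (0.57) and SLX4 (0.31) were the members called higher, and the call of SLX4 was lost in 11 of the alternative fits. Of 26 checkpoint genes 15 were lower and 1, TP53BP1 (0.25), was higher. CHEK1 was at -0.74 and H2AX, whose product is phosphorylated at DNA breaks, at -1.0. The upstream kinases ATM (-0.07) and ATR (-0.29) had no call.

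Among 29 genes that resolve or prevent RNA-DNA hybrids 16 were lower and 2 higher (median -0.31). TOP1 was at -0.25 and the helicase PIF1 at -1.18, and RNASEH2A, at 7.30 to 10.6 CPM over the 6 libraries, was at -0.17 without a call.

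The p53 targets were mostly higher. Of 29 tested 19 were called higher and 1 lower, with a median of 0.34. CDKN1A, the CDK inhibitor p21, was at 1622, 1556 and 1678 CPM against 2760, 2809 and 2671 CPM (log2 fold change 0.76, standard error 0.07, adjusted p = 8.72e-09). SESN3, a sestrin that restrains mTORC1 signalling and is also a FOXO target, was at 29.2, 31.5 and 24.3 CPM against 97.0, 88.9 and 95.9 CPM. TP53INP1 (1.35) and AEN (0.89), an apoptosis-enhancing nuclease, were higher as well. MDM2 was at 0.21, a call lost in 5 alternative fits, and PLK2 was the member that was lower (-0.37).

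Genes of RNA handling were lower across several classes. Of 66 SR, hnRNP and core splicing factors 45 were lower and 2 higher (median -0.36). SRSF2 was at 226, 307 and 279.8 CPM against 152, 163 and 131 CPM (log2 fold change -0.87), SRSF1 was at -0.68 and HNRNPA1 at -0.50. SRSF3 was at 511, 872 and 643 CPM against 577, 616 and 559 CPM and had no call. Of 55 nuclear pore and transport genes 32 were lower and 2 higher (median -0.29), with the importin KPNA2 at -0.83, the GTPase RAN at -0.57 and the pore protein NUP93 at -0.47. Hosts of small nucleolar RNAs and related noncoding RNAs had one of the lowest medians, -0.58, with 23 of 29 lower and 0 higher. SNHG15 was at 341, 359.7 and 333 CPM against 168, 197 and 193 CPM, and SNHG1 (-0.67) and GAS5 (-0.37) were lower too.

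Long noncoding RNAs of the nucleus went both ways. MALAT1, a component of nuclear speckles, was at 1682, 1661 and 1781 CPM against 2911, 2669 and 3090.4 CPM (log2 fold change 0.76), and NEAT1, the scaffold of paraspeckles, was at 0.45. KCNQ1OT1, which lies within KCNQ1, was at -0.72. MIR17HG, the host of the miR-17-92 cluster and chosen after its value was seen, was at -1.0. In that list 7 of 21 were higher and 5 lower (33.3% and 23.8%, beside 25.7% and 23.9% of all genes). Without shCDK12 replicate 1 the counts were 6 higher and 7 lower. The 414 numbered zinc finger genes went both ways, with 124 higher and 93 lower (30.0% and 22.5%, median 0.05), among them ZNF704 at -1.58 and ZNF792 at 1.57. ZNF281 was at -0.36 and ZNF143 at -0.19 without a call.

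**Figure D3:**
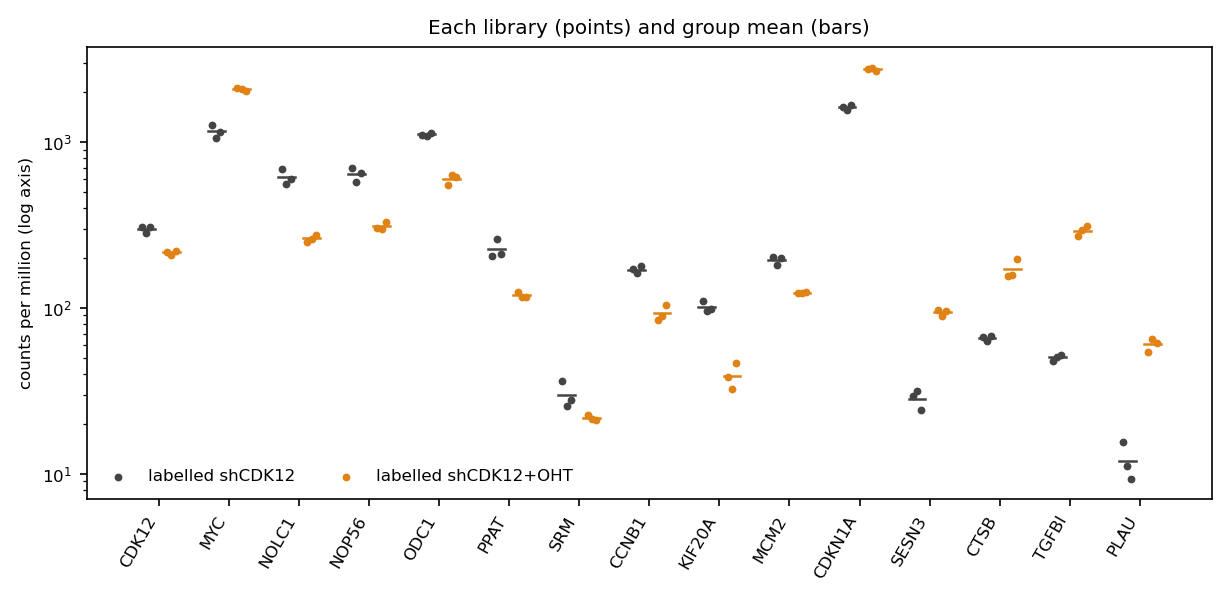
CPM (vertical log axis) of 15 genes in the 3 libraries labelled shCDK12 (grey points) and the 3 labelled shCDK12+OHT (orange points), with a bar at each group mean. NOLC1, NOP56 and KIF20A are lower and SESN3, TGFBI and PLAU higher in every library labelled shCDK12+OHT, and the gap is narrowest for SRM.

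Lists of matrix and adhesion genes held more genes called higher than lower. Of 47 matricellular, TGF-beta and YAP target genes 28 were called higher and 4 lower, with a median log2 fold change of 0.56. CCN1 and CCN2, secreted proteins known as YAP targets, were both higher, CCN1 at 3026, 3118 and 3298 CPM against 5528, 6322 and 5489 CPM (log2 fold change 0.88, standard error 0.08, adjusted p = 3.87e-09) and CCN2 with a log2 fold change of 0.81. THBS1, which encodes thrombospondin, was higher by less (0.37). Chosen after their values were seen, fibronectin (FN1, 1.36), activin A (INHBA, 1.36), the TGF-beta receptor TGFBR2 (0.83) and the signal transducer SMAD3 (0.84) were higher as well. BAMBI, a decoy receptor of the same pathway, was lower, at 133, 159.5 and 156 CPM against 56.4, 60.1 and 61.0 CPM, as was CCN3 (-1.34).

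The enzymes that cut the matrix and their inhibitors had the highest median of the lists under the count filter, 0.61. Of 27 tested 17 were higher and 1 lower. TIMP1, a secreted inhibitor of metalloproteinases, was at 100.3, 96.6 and 106 CPM against 289, 286 and 308 CPM (log2 fold change 1.55), and the collagenase MMP13 was at 0.71. TIMP3 was at 0.13 without a call and ADAMTS1 was lower (-0.53). Of 22 integrins and laminins 13 were higher and 2 lower (median 0.43). ITGA3 was at 82.6, 86.6 and 77.0 CPM against 165, 157 and 178 CPM, LAMB3, a chain of laminin-332, at 1.02, and ITGA5 (0.67) and ITGB1 (0.39), which pair as the fibronectin receptor, were both higher. LAMC1 was at -0.10 without a call and LAMC3 lower (-0.91). Of 21 collagens 9 were higher and 2 lower (median 0.21), with COL6A3 at 1.39, COL5A1 at 0.63, COL1A1 at 0.37 and COL17A1, a collagen of epithelial anchoring, at -0.74. Of 13 tested IGF genes 5 were higher and 1 lower. IGF1R was at 0.51, IGF2BP1 at 0.53 and IGF2BP3 at -0.53, whereas IGFBP3, IGFBP5 and IRS2 were below the filter, with at most 12, 72 and 5 counts in a library. Without the filter on low counts the medians were 0.24 over 50 proteases, 0.06 over 38 integrins and laminins and -0.10 over 44 collagens. The matricellular list had a median of at least 0.448 in every alternative, so the top rank of the proteases did not hold without the filter.

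Lineage genes were divided. Of 25 osteoblast and mesenchymal genes 9 were higher and 8 lower (36% and 32%, beside 25.7% and 23.9% of all genes). That majority turned under 7 of the alternatives, among them leaving out shCDK12 replicate 2 or any library labelled shCDK12+OHT. RUNX2, the bone lineage factor, was at 66.9, 63.1 and 59.2 CPM against 111, 109 and 112 CPM (log2 fold change 0.81), and SOX9 was at 0.58. SNAI1, a repressor of epithelial genes, was at 520, 474 and 480 CPM against 238, 245 and 192 CPM. PRRX1 was at -2.54, on low raw counts of 43, 111 and 56 against 16, 20 and 8. The bone markers ALPL, SPP1, BGLAP and IBSP had at most 38, 24, 2 and 5 counts in a library. Of 20 HOX genes 8 were higher and 5 lower (40% and 25%), and 5 and 5 of 18 without shCDK12+OHT replicate 2. HOXB13 was at 1.41, HOXC8 at -1.37 and HOXC10 at 0.08 without a call, and HOXA9 was below the filter.

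Early response genes opposed one another within their list. Of 34 AP-1 and immediate-early genes 13 were higher and 10 lower (38.2% and 29.4%, beside 25.7% and 23.9% of all genes, median -0.04). EGR1 was at 4392, 4607 and 5059 CPM against 1999, 2208 and 1760 CPM (log2 fold change -1.24), and FOS was at -1.09, JUN at -0.40 and FOSL1 at -0.43. FOSL2, another partner of JUN, was at 255, 239 and 259 CPM against 601, 603 and 584 CPM, so relatives of FOS changed in both directions. Of 33 NF-kB and cytokine genes 15 were higher and 8 lower (45.5% and 24.2%, median 0.16). The cytokines IL11 (1.23) and LIF (1.07) of the IL-6 family and CXCL8 (0.91) were higher, TNFAIP3 was at 0.33, NFKBIA at 0.15 without a call, and TNF was at 15.9, 17.4 and 20.5 CPM against 7.30, 7.04 and 6.61 CPM. IL6 was below the filter.

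Of 31 interferon response and antigen presentation genes 14 were higher and 2 lower (median 0.13, and 0.41 over 34 genes without shCDK12 replicate 3). SAMD9 was at 197, 247 and 228 CPM against 584, 613 and 625 CPM (log2 fold change 1.43), the peptide transporter TAP1 was at 1.52 and IFIT1 at 1.29 from 4.59 to 5.90 CPM in the libraries labelled shCDK12. HLA-B (-0.81) and NLRC5 (-0.66), an activator of class I genes, were lower. Reads of HLA genes can be shared among near-identical relatives. In the list of SRF targets, actin and adhesion genes 20 of 38 were higher and 5 lower (median 0.24), with FHL2 at 0.94, FHL3 at 1.15 and VCL, which encodes vinculin, at 0.40. The actin gene ACTB was lower (-0.26), CNN1 was at -0.42 and TAGLN at 0.08 without a call. Of 23 clock genes 6 were higher and 7 lower (26.1% and 30.4%, beside 25.7% and 23.9% of all genes). NR1D1, which encodes REV-ERB alpha, was at 206, 179 and 189.5 CPM against 65.2, 70.3 and 54.9 CPM, and BMAL1, which REV-ERB represses, was at 6.77, 5.28 and 4.18 CPM against 14.6, 14.2 and 10.8 CPM. PER1 (0.03) and DBP (0.04) had no call.

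Markers of blood, endothelial and epithelial cells were measured as a check on the cells sampled. The 14 blood and immune markers summed to 29.0 to 37.7 CPM in the libraries labelled shCDK12 and 24.1 to 29.8 CPM in those labelled shCDK12+OHT, and the 10 endothelial markers to 32.1 to 42.5 and 21.3 to 26.9 CPM. PTPRC, CD3E and PECAM1 had at most 6, 2 and 8 counts in a library and VWF at most 27. CD68 (-0.53) and ERG (-0.90) were the only tested members of these lists and were lower. The 12 epithelial markers summed to 721 to 846 CPM against 1020.0 to 1090.0 CPM, most of it KRT8 (0.61) and KRT18 (0.21, no call), with CLDN4 higher (1.23), EPCAM lower (-1.64) and CDH1 at 0.34 without a call. Their part in the rise of the adhesion genes was not tested.

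Beyond the lists, the calls varied with the class and the length of the gene. Protein-coding genes were called higher in 26.5% and lower in 23.6% of 11528 cases. Small RNA genes were lower in 38.8% and higher in 6.98% of 129, and genes named as hosts of small nucleolar or micro RNAs lower in 52.9% and higher in 11.8% of 34. With the counted features not given, reads of a small RNA gene inside a host cannot be told apart from those of the host. Antisense RNAs were lower in 27.0% and higher in 14.1% of 163, although without a stated strand setting their reads and those of the opposite gene cannot be told apart. LINC genes (27.1% higher, 20% lower of 85) were close to protein-coding genes.

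Among protein-coding genes the balance moved from lower to higher with the span of the gene. Below 10 kb 29.9% were lower and 22.7% higher, and over 200 kb, in 909 genes, 14.7% were lower and 32.6% higher, and the median log2 fold change was 0.16. Across all genes with a length and GC value the correlation of the fold change with log10 length was weak (r = 0.12, over 12177 genes that share 6 libraries) and that with GC content weaker (r = 0.04). With trends in both removed within each library 6617 genes were called, 5784 of them among the 6143, and 0 of these changed sign.

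**Figure D4:**
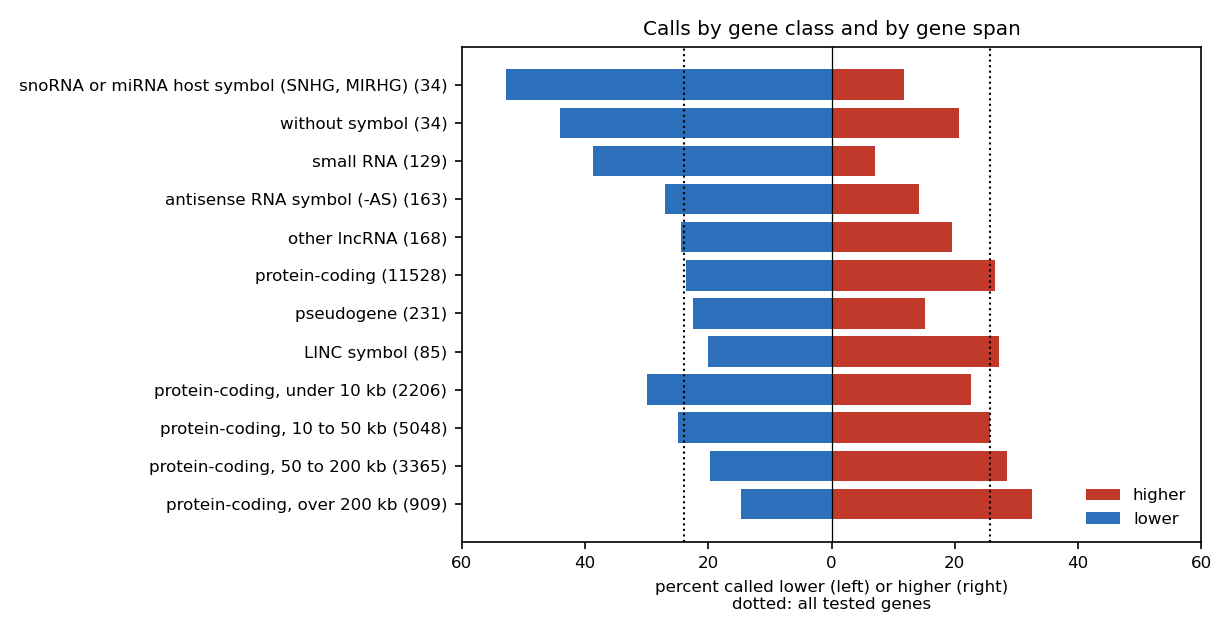
Percent of tested genes called lower (blue, to the left) and higher (red, to the right) by gene class, and for protein-coding genes by span, with the number tested in parentheses. Dotted lines mark the shares over all tested genes, 23.9% lower and 25.7% higher, and protein-coding genes over 200 kb reach 32.6% higher and 14.7% lower.

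The OHT response differed from the one in shNT cells, whose 6 libraries are not shared with it. Total counts there were 1928373 to 5227279 in shNT and 1251695 to 3666406 in shNT+OHT. The correlation of log2 CPM within the group was 0.972 to 0.983 in shNT and 0.931 to 0.958 in shNT+OHT. In a fit of all 12 libraries, the interaction of OHT and hairpin was called for 5207 of 11299 genes (46.1%). It was called for 28 of 29 Myc targets, 53 of 70 nucleolar factors, 53 of 61 mitosis genes and 36 of 46 matricellular genes, and for 18 of 79 respiratory chain genes and 13 of 48 proteasome genes. In that fit the median of the Myc targets on the log2 scale was 0.69 in shNT cells and -0.53 in the libraries labelled shCDK12, and the nucleolar factors 0.46 and -0.52. The matrix proteases were at -0.53 in shNT cells and at 0.70 in the libraries labelled shCDK12. Other groups stood closer to 0 in shNT cells. Replication genes had medians of 0.07 and -0.47, mitosis genes of 0.17 and -0.74, and lysosome genes of -0.12 and 0.40. MYC was at -0.06 in shNT cells and at 0.84 in the libraries labelled shCDK12 (interaction 0.90, standard error 0.14, adjusted p = 1.47e-05), and CDK12 at 0.42 and -0.47. Because the CDK12 signal does not settle which group carries which treatment, a response that differs with the hairpin and exchanged labels cannot be told apart from these values.

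**Figure D5:**
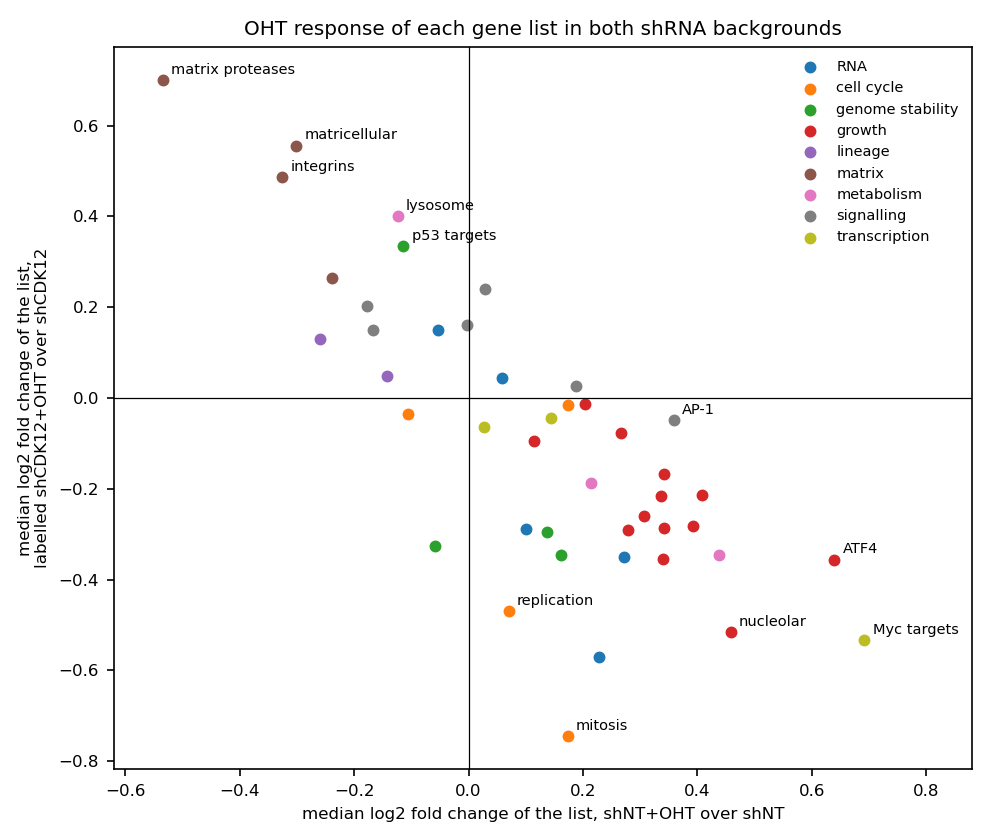
Median log2 fold change of 44 gene lists upon OHT in shNT cells (horizontal axis) and in the libraries labelled shCDK12 (vertical axis), with colours for the theme of the list; both axes come from the fit of all 12 libraries. Growth lists lie right of 0 and below 0, matrix lists left of 0 and above 0, and replication and mitosis genes lie far below 0 with little shift to the right.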

How the data were processed

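EU-seq libraries of U2OS-MycER cells were grouped by their GEO labels. The authors deposited raw read counts per gene in 1 table. Per the submitters' processing notes STAR 2.7.5c, featureCounts 1.4.5-p1 and the hg19 build were used, while the strand setting and the features counted are not given in the sources used here. Symbols were matched from RefSeq (GRCh38.p14) by gene identifier for 23284 of 23434 rows, and the other 150 were tested unnamed. The counts carry no gene coordinates, so the only coordinates given are those of the promoter table in its own build.

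The main comparison was fitted on the 6 libraries labelled shCDK12 and shCDK12+OHT with edgeR 4.0.16 in R 4.3.3 (TMM, robust quasi-likelihood test, Benjamini-Hochberg adjustment at 0.05) on genes with a mean normalised count above 32, which left out 11045 rows. Standard errors were derived from the fold change and the F statistic. The interaction was fitted on all 12 libraries. Replicates are separate samples by label, no source says they were separate cultures, and p-values then measure the spread between samples. Within each group all pairs of libraries differed beyond sampling noise, with a chi-square per degree of freedom from 2.75 to 6.88.

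Named were CDK12, MYC and the 8 largest rises and falls among called genes without overlap and above a mean normalised count of 100. The rule also named the leading genes of 48 lists and up to 3 members of each list with the smallest p in each direction. Other genes were chosen with their values known, whether or not this is said beside them. Some of these are all the members of a list called on one side or without a call. The lists, members and rules were chosen with earlier results of these data known. Some genes the rule names are not reported here. Of the 208 named from it 120 overlap the RefSeq span of another gene, and counts in shared stretches are uncertain. Simulated counts with 200 genes changed 2-fold gave 193 recovered and 17 false calls among 12389 genes. In the data 49.6% of genes were called, with a median absolute log2 fold change of 0.575. The simulation thus had fewer and mostly larger changes, and its rates do not carry over to the reported calls. The alternatives were DESeq2 1.42.0, other scalings and filters, 1 fit of all libraries, a replicate block, thinning, removal of length and GC trends, and leaving out each library.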

Additional observations from a re-analysis of the deposited data

Results flagged for a closer look

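The response to OHT was tested for a difference between the hairpin backgrounds in the fit of all 12 libraries, with edgeR's quasi-likelihood test and Benjamini-Hochberg adjustment. It differed for 5207 of 11299 genes. CDK12, MYC and the genes with the largest changes above a mean normalised count of 100 were among them, and the latter were chosen for 1 of the 2 changes that this test compares, so their calls are no independent result. Given as the log2 fold change in the libraries labelled shCDK12 minus that in shNT, the difference was 4.42 for MAF, 4.12 for PLAU, 3.58 for AHNAK2, 3.27 for TGFBI, 2.99 for PMEPA1, 2.84 for APOL6, 2.83 for TRIML2, 2.79 for TENM2 and 0.90 for MYC. It was -7.24 for ADCYAP1R1, -5.2 for RGS16, -4.47 for PEG3, -4.07 for CA12, -3.98 for DCAF4L1, -3.81 for GABRA5, -3.77 for GJA1, -3.68 for SLC6A11 and -0.89 for CDK12. With the exception of MYC, whose log2 fold change was -0.06 in shNT cells, each of these genes moved beyond 0.4 on the log2 scale and in opposite directions in the backgrounds.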

How the results depend on the processing

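The 6143 calls were 5661 with DESeq2, 6156 with upper-quartile normalization, 6149 with no scaling factor, 6800 with no filter on low counts, 5081 with a mean normalised count above 100, 4333 with all 12 libraries in one fit, 5450 after thinning and 6617 with length and GC trends removed. With a library left out they ran from 4992 (without shCDK12+OHT replicate 2) to 6486 (without shCDK12 replicate 1). In each of these, 0 of the calls shared with the reported fit changed sign, and the share of higher genes, 51.8%, ran from 48.8% to 55.7%. The interaction was called for 4564 to 5749 genes over its alternatives. Libraries with the same replicate number did not deviate together (correlation -0.01, 0.05 and 0.04), so the numbers gave no pairing. With the replicate block 6212 genes were called, 6025 of them shared.

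Of the 47 gene lists tested, 39 kept the majority of their calls in every alternative, among them the endothelial list with 1 tested gene. Over lists and alternatives, 565 list medians stayed within 1 SD of the list's level among replicate libraries, and 139 moved by more. Of 195 called genes in the text 175 kept their call in every alternative that tested them, 167 of them in all 15 and 8 in at least 11, and 0 reversed. In the fit of all 12 libraries LAMP2 lost its call (adjusted p = 0.0543), and COL1A1 did after thinning (0.051). Leaving out shCDK12 replicate 2 ended the call of COL5A1, IGF2BP3, RPSA and SLX4, replicate 1 that of MDM2 and SRM, and replicate 3 that of CD68, CNN1, HSP90AA1, IMPDH2, LDHA, MDM2, NLRC5, SLX4 and TRIB3. Leaving out shCDK12+OHT replicate 1 ended that of IGF2BP3, IMPDH2, LDHA, MDM2, MXD3, NLRC5, SHMT2, SLX4, TOP1, TP53BP1 and UMPS, replicate 2 that of CD68, IGF2BP3, LDHA, NLRC5, RPSA, SLX4, SRM, TOP1 and TP53BP1, and replicate 3 that of CNN1, HSP90AA1, IGF2BP3, MDM2, RPSA and SRM. The highest adjusted p was 0.323 for IGF2BP3, 0.287 for HSP90AA1, 0.284 for SLX4, which lost its call in 11 alternatives, 0.24 for RPSA, 0.17 for LDHA and 0.141 for UMPS.

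Genes that changed sign had no call in the reported fit. With a library left out the log2 fold change ran from -0.197 to 0.101 for ATM, -0.105 to 0.00949 for CDK4, -0.0753 to 0.157 for DBP, -0.16 to 0.21 for E2F1, -0.132 to 0.0125 for H4C3, -0.124 to 0.211 for HOXC10, -0.0659 to 0.0793 for PER1 and -0.178 to 0.011 for WARS1. E2F1 was at 0.00141 with no scaling factor and 0.00719 with no filter. H4C3 was at 0.000675 with no filter and, with length and GC trends removed, at 0.174 and called (adjusted p = 0.0469), where PER1 was at -0.00741. HOXC10 was at -0.0538 after thinning. The cause was not tested. Depth limits the genes tested, which were 11188 after thinning to the smallest total.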
